A study of Homo sapiens with 6 samples.

Results

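The genes described here are 36 cytosolic and mitochondrial chaperone genes, chosen by name as heat shock proteins, their co-chaperones, the TRiC chaperonin and the heat shock factors HSF1 and HSF2. Each symbol was matched in the count table of 63677 genes, and all 36 passed the filter on low counts. All RNA came from RPMI-8402, a line grown from T-cell acute lymphoblastic leukaemia, with Cas9 stably expressed in every sample. Control cells (labelled DMSO, genotype control) received the solvent, and the others (labelled Doxycycline, genotype MYCN_knockout, here DOX) received doxycycline to switch on guide RNAs. Both groups were harvested at 72 hours and gave 3 libraries each, which carry below their group and their column's number. Which gene the guides cut is given as both MYC and MYCN in the series text, as MYC in the treatment text and as MYCN in the genotype label. Libraries from cells given doxycycline without guides were not analysed here, so the responses to the drug and to the guides cannot be told apart. The labels do not say whether a group's libraries were separate cultures, so each p-value reflects only library-to-library spread, possibly technical.

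Chaperones hold newly made or damaged proteins in a form that can still fold. In the cytosol, HSP70 binds short exposed stretches of a chain with the help of HSP40 (J) proteins and nucleotide exchange factors, HSP90 with its co-chaperones matures kinases and hormone receptors, and the ring-shaped TRiC folds actin and tubulin. Mitochondria keep their own HSP70, HSP60 with HSP10, and HSP90. Heat shock factors switch on many of these genes under stress through heat shock elements, which are alternating copies of GAA and TTC.

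The libraries held 28602145 to 29204148 counts. MYCN stood at 76.8 to 109.5 CPM (counts scaled to library size, with edgeR's TMM factors) in DMSO and 46.2 to 53.7 CPM in DOX, and MYC at 201 to 279 CPM in DMSO and 193 to 206 CPM in DOX. DMSO 11 stood apart from the other control libraries. Over 9311 genes with a mean of 10 CPM or more, it lay 0.41 or 0.43 log2 units (root mean square) from either of them, and 0.18 to 0.21 from each DOX library. Each result below is therefore given by library. All 7 markers of T-cell leukaemia were present, among them CD3D, CD3E and CD7, with PTCRA the lowest at 3.95 to 7.74 CPM. The 4 myeloid markers summed to at most 0.665 CPM and the 4 B cell markers to 5.22 to 6.99 CPM, with MS4A1 at 0. Of 4 fibroblast markers, COL1A2, COL3A1 and DCN were at or near 0 in every library, and COL1A1 stood at 2.44 to 7.11 CPM in DMSO and 9.18 to 9.70 CPM in DOX. COL1A1 was thus, like HSPA1A and HSPA1B below, lowest in DMSO 23 and 35, and its part in those results was not tested.

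Promoter sequences are shown first for genes whose level differed widely between libraries and for the heat shock factor that DESeq2 called. They come from RefSeq (GRCh38.p14), run 5′ to 3′ on the gene's strand from 250 bases before to 30 bases after the start site, and carry in capitals each GAANNTTC, TTCNNGAA or CACGTG. The counts were made on hg19, so the coordinates belong to the sequences only. HSPA8 (chr11:123062107-123062386, minus strand) and DNAJA1 (chr9:33025023-33025302, plus strand) are abundant members in which DMSO 11 stood far above the other controls. HSPA1A (chr6:31815293-31815572, plus strand) is the stress-inducible HSP70. CHORDC1 (chr11:90223020-90223299, minus strand) is shown for its run of overlapping GAANNTTC and TTCNNGAA. HSPE1 (chr2:197500129-197500408, plus strand) is shown for the window it shares with HSPD1 on the opposite strand. HSF2 (chr6:122399301-122399580, plus strand) is shown for its 2 copies of CACGTG, the E-box that MYC and MAX bind.
HSPA8: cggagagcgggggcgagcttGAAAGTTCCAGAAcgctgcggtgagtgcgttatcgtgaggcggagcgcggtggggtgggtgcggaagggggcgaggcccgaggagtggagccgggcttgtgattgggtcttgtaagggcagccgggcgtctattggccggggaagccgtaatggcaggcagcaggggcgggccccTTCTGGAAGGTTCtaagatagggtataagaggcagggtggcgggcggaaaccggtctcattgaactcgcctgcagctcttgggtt
DNAJA1: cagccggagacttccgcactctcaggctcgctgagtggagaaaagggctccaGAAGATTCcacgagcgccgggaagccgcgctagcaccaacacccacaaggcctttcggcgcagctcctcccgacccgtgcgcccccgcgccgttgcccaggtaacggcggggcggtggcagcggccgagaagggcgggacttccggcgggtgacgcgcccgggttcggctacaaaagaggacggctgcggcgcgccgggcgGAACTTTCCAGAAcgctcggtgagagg
HSPA1A: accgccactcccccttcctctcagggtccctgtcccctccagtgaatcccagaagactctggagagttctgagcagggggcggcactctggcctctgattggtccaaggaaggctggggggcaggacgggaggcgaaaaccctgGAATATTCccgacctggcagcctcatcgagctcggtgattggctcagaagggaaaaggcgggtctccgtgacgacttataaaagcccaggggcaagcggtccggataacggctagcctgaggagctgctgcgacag
CHORDC1: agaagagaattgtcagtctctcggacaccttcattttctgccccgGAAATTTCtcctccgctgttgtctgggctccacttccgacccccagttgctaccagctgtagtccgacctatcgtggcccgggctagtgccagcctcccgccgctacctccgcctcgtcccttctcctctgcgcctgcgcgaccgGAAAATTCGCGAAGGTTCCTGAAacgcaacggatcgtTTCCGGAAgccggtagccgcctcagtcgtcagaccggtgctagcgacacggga
HSPE1: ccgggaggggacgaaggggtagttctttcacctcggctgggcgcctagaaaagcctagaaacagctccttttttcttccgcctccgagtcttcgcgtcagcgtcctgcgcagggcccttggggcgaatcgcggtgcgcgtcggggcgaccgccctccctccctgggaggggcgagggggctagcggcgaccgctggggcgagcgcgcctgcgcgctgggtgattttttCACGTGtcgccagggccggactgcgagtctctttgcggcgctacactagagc
HSF2: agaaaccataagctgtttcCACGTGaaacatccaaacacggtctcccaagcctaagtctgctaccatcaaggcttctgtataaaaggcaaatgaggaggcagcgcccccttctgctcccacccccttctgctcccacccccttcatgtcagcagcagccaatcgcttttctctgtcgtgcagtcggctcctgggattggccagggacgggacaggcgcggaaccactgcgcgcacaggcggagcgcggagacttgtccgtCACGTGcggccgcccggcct

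Motifs were sought on both strands in windows of 300 bases, 250 before to 50 after the start site, and 34 of the 36 members were matched (FKBP4 and HSF1 were not). Only the first listed window of each member was searched, and the windows of all promoters were not limited in that way. Other start sites of a member were not searched, so a window without a match does not show that the gene lacks the motif. A GAANNTTC or TTCNNGAA pair was in 11 of the 34 member windows (32.4%) and in 13.5% of all 35116 promoter windows. The 3-unit element, in which GAANNTTC and TTCNNGAA overlap by sharing their middle TTC or GAA, was in 5 member windows (14.7%) and in 0.49% of all windows. Those 5 were HSPA8, DNAJA1, DNAJB6, CHORDC1 and SERPINH1. HSPA8 held 3-unit elements starting 230 and 55 bases before the start site, DNAJA1 held one 3 bases after it, and CHORDC1 held 3 overlapping ones from 60 bases before it. HSPA1A and HSPA1B each held a single pair, 106 and 105 bases before the start. CACGTG was in 4 member windows (11.8%), against 7.26% of all windows, and those were HSPA9, HSPD1, HSPE1 and HSF2. The HSPD1 and HSPE1 matches are the same site read on opposite strands, so that site is counted for both genes. A match is a run of letters and not a measured binding site.

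Over all 6 libraries, edgeR's quasi-likelihood test called 0 of the 36 members at a Benjamini-Hochberg adjusted p of 0.05, where it called 0.0313% of 15949 genes tested. At an unadjusted edgeR p under 0.05 there were 4 higher and 9 lower members, against 11.2% of all genes higher and 14.8% lower. limma's voom test also called 0 members. DESeq2 called 1 member higher in DOX, HSPA1B, and 4 lower, HSPA4, TRAP1, CCT4 and HSF2. Its background was 3.37% of genes called higher and 6.44% called lower. The authors' deposited table gives the same 5 members an adjusted p below 0.05, from 0.00574 for HSF2 to 0.0445 for TRAP1. In 9 members every DOX library lay below every DMSO library and in 3 above, against 15.6% and 14.6% of all genes. The 12 members together are 1 in 3, near the 30.2% of all genes. The median log2 fold change (DOX over DMSO, from edgeR) was 0.11 over the members and -0.00307 over all genes. A two-sided exact permutation test of 3 libraries against 3 cannot give a p below 0.1 for a single gene.

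In the members' summed level, the control libraries differed more from one another than the DOX libraries did. This did not hold in every member, as in CCT4 and DNAJA2 the DOX libraries varied more. Nor was it particular to the members. Over the 9311 genes above, the DOX libraries lay 0.11 log2 units from one another and the controls 0.17 to 0.43. Summed over the 36 genes, the level was 12823 CPM in DMSO 11, 8182 in DMSO 23 and 8158 in DMSO 35, against 11200.1, 11513 and 10887 CPM in DOX 12, 24 and 36. The DOX libraries thus lay between the lowest and the highest control. In 23 of the 36 members DMSO 11 was the highest of all 6 libraries, against 18.4% of all genes. In 29 members it was the highest of the controls, against 40.8% of all genes. DMSO 11 was nearer to the DOX mean than to the mean of DMSO 23 and 35 in 72.2% of the members, close to the 69.2% of all genes tested.

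**Figure D1:**
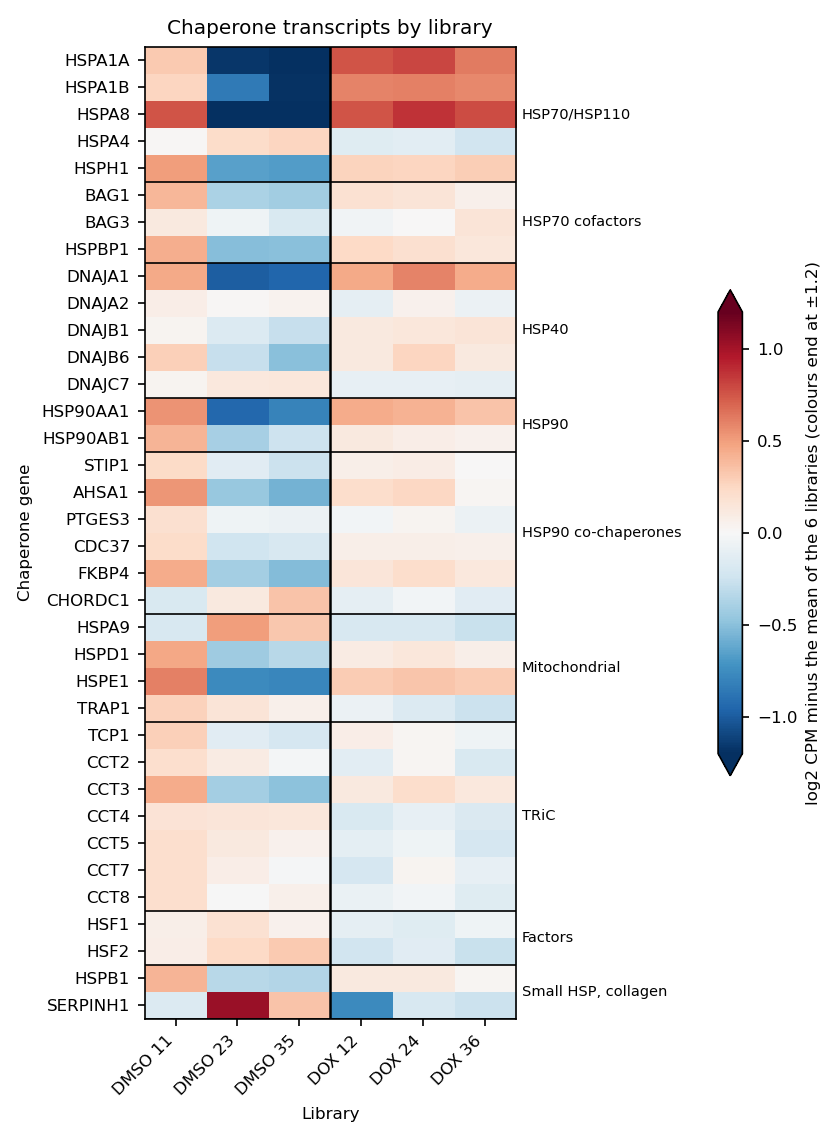
Level of the 36 chaperone genes (rows, by role) in each of the 6 libraries (columns), as log2 CPM minus the gene's mean over the libraries, with red above and blue below that mean. DMSO 23 and DMSO 35 are blue for HSPA8, DNAJA1 and HSP90AA1, in which DMSO 11 and the 3 DOX libraries are red.

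The HSP70 genes gave the widest range. HSPA8 (ENSG00000109971, chromosome 11), the constitutive cytosolic HSP70 that also uncoats clathrin vesicles, stood at 1408 CPM in DMSO 11 but at 277 in DMSO 23 and 281 in DMSO 35. DOX 12, 24 and 36 held 1405, 1515 and 1431 CPM. One control was therefore at the DOX level and the other controls were far below it, and the groups overlapped. DMSO 11 was 5.05-fold above the mean of DMSO 23 and 35, the largest such fold of the 9311 genes with at least 10 CPM. The DOX mean was 5.20-fold above DMSO 23 and 35 but 1.03-fold above DMSO 11. The log2 fold change was 1.15 ± 0.57 (SE, 3 libraries a group; edgeR adjusted p = 0.236). In bulk RNA, fewer cells of a type and less RNA per cell cannot be told apart. Without DMSO 11 it was 2.38, and its lowest value with 1 library left out was 0.78.

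HSPA1A and HSPA1B, neighbouring genes on chromosome 6 that encode the heat-inducible HSP70, were higher in each DOX library than in each control. HSPA1A (ENSG00000204389) stood at 14.8, 5.28 and 4.70 CPM in DMSO 11, 23 and 35 and at 19.99, 20.6 and 18.3 CPM in DOX 12, 24 and 36. HSPA1B (ENSG00000204388) stood at 13.7, 6.37 and 5.04 CPM in the controls and at 17.3, 17.4 and 17.0 CPM in DOX. The log2 fold changes were 1.25 ± 0.38 for HSPA1A and 1.05 ± 0.32 for HSPA1B, each with an edgeR adjusted p of 0.11. DESeq2 called HSPA1B (adjusted p = 0.0169) and not HSPA1A (adjusted p = 0.109). Of all windows of 100 bases, 69.9% in HSPA1A and 72.7% in HSPA1B occur in transcripts of other genes, mainly of each other, so the split between them is uncertain. Their summed level, 28.4, 11.7 and 9.74 CPM in the controls against 37.3, 38.1 and 35.3 CPM in DOX, does not depend on that split. It is only as complete as the counting of shared reads, and the counter's setting for such reads is not given in the sources used.

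The HSP110 genes, which exchange nucleotide on HSP70, went different ways. HSPH1, a heat-inducible member, stood at 193, 86.2 and 85.2 CPM in DMSO 11, 23 and 35 and at 163, 163 and 166 CPM in DOX, so that DMSO 11 lay above and the other controls below every DOX library. HSPA4 stood at 194, 223 and 229.7 CPM in the controls and at 174, 176 and 164 CPM in DOX, below every control. Its log2 fold change was -0.33 ± 0.09, which DESeq2 called (adjusted p = 0.0287) and edgeR did not (adjusted p = 0.101).

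Among HSP70 cofactors, BAG1 and HSPBP1 repeated the HSPH1 pattern and BAG3 varied little. BAG1, a nucleotide exchange factor that links HSP70 to the proteasome, stood at 67.3, 39.4 and 38.4 CPM in the controls and 57.9, 57.1 and 53.4 CPM in DOX. HSPBP1, another exchange factor, stood at 64.2, 33.2 and 33.5 CPM in the controls and 55.7, 54.1 and 52.1 CPM in DOX. In both genes DMSO 11 was highest and the other controls lowest. BAG3, an autophagy-linked cofactor, ranged from 18.7 to 23.5 CPM over all libraries. The log2 fold changes of the 3 genes ran from 0.07 to 0.31, with edgeR adjusted p-values of 0.419 to 0.692.

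The 5 HSP40 genes differed from one another. DNAJA1, the main farnesylated J protein partner of HSPA8, stood at 482 CPM in DMSO 11, 178 in DMSO 23 and 182 in DMSO 35, and at 484, 532 and 481 CPM in DOX 12, 24 and 36. DMSO 11 was inside the DOX range, as for HSPA8, and the log2 fold change was 0.83 ± 0.35 (edgeR adjusted p = 0.183), or 1.47 without DMSO 11. DNAJB1, the J protein induced by heat, stood at 168, 146 and 136 CPM in the controls and at 179, 181 and 183 CPM in DOX, with no overlap and a log2 fold change of 0.27 ± 0.10 (edgeR adjusted p = 0.139). DNAJB6, which keeps aggregation-prone chains soluble, had overlapping groups, with 95.3 to 164 CPM in the controls and 146 to 161 CPM in DOX. DNAJC7, a J protein that also holds TPR repeats, had DOX values (90.7 to 91.4 CPM) below all control values (100.2 to 107 CPM), with an edgeR adjusted p of 0.147. DNAJA2, another farnesylated J protein, varied little, between 85.8 and 97.3 CPM (log2 fold change -0.08 ± 0.08).

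**Figure D2:**
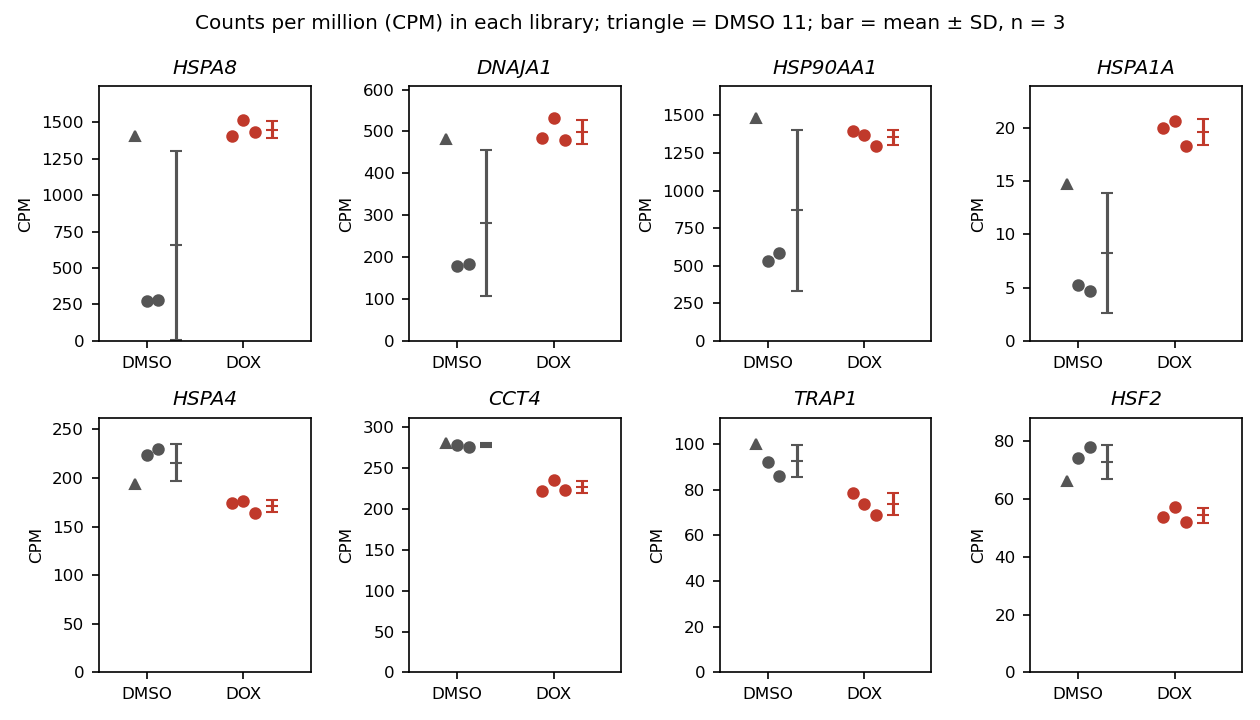
CPM of 8 members in each library, with the controls in grey (DMSO 11 as a triangle) and DOX in red, and the mean ± SD of 3 libraries beside the points. In the upper row DMSO 23 and DMSO 35 lie far below the other libraries, and in the lower row all DOX points lie below all DMSO points.

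Per length, HSP90AB1 was the most abundant member in every library, and HSP90AA1 was above HSPA8 in DMSO 23 and 35 and below it in the other libraries. HSP90AB1, the constitutive cytosolic HSP90, had a mean of 565 CPM per kilobase of exons in DMSO and 613 in DOX, and HSP90AA1, its stress-inducible relative, had 165 and 258. HSP90AA1 stood at 1484 CPM in DMSO 11, 534 in DMSO 23 and 587 in DMSO 35, and at 1395, 1371 and 1297 CPM in DOX 12, 24 and 36. Its log2 fold change was 0.64 ± 0.35 (edgeR adjusted p = 0.272) with all libraries and 1.27 without DMSO 11. HSP90AB1 stood at 2295, 1305 and 1448 CPM in the controls and at 1876, 1819.6 and 1784 CPM in DOX, a log2 fold change of 0.12 ± 0.20. In both genes the DOX values lay inside the range of the controls. The ratio of HSP90AA1 to HSP90AB1 CPM was 0.647 in DMSO 11, 0.409 in DMSO 23 and 0.405 in DMSO 35, and 0.727 to 0.754 in DOX. The ratio was thus higher in every DOX library than in every control, a comparison chosen after the values were seen. Of the windows of 100 bases, 2.1% in HSP90AA1 and 1.6% in HSP90AB1 occur in other genes, mainly pseudogenes.

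None of the 6 HSP90 co-chaperones was called by edgeR or DESeq2, and all 6 had overlapping groups. FKBP4, the immunophilin FKBP52 of steroid receptor complexes, stood at 551, 305 and 283 CPM in DMSO 11, 23 and 35 and at 449, 468 and 442 CPM in DOX. PTGES3, the p23 protein that stabilises closed HSP90, stood at 492, 416 and 409 CPM in the controls and at 419.6, 442 and 409.7 CPM in DOX. STIP1, the adaptor that hands clients from HSP70 to HSP90, AHSA1, which speeds the HSP90 ATPase, and CDC37, which brings kinases to HSP90, were likewise highest in DMSO 11 and lowest in DMSO 23 or 35. Their log2 fold changes were 0.09, 0.24 and 0.12. CHORDC1, a zinc-binding HSP90 partner, went the other way, with 46.8 CPM in DMSO 11, 57.5 in DMSO 23, 67.0 in DMSO 35 and 48.2 to 51.8 CPM in DOX. Its window, shown above, holds 3 overlapping 3-unit heat shock elements in a single run, and that of HSPA8 holds 2 apart from each other. The part of these elements in the levels was not tested.

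**Figure D3:**
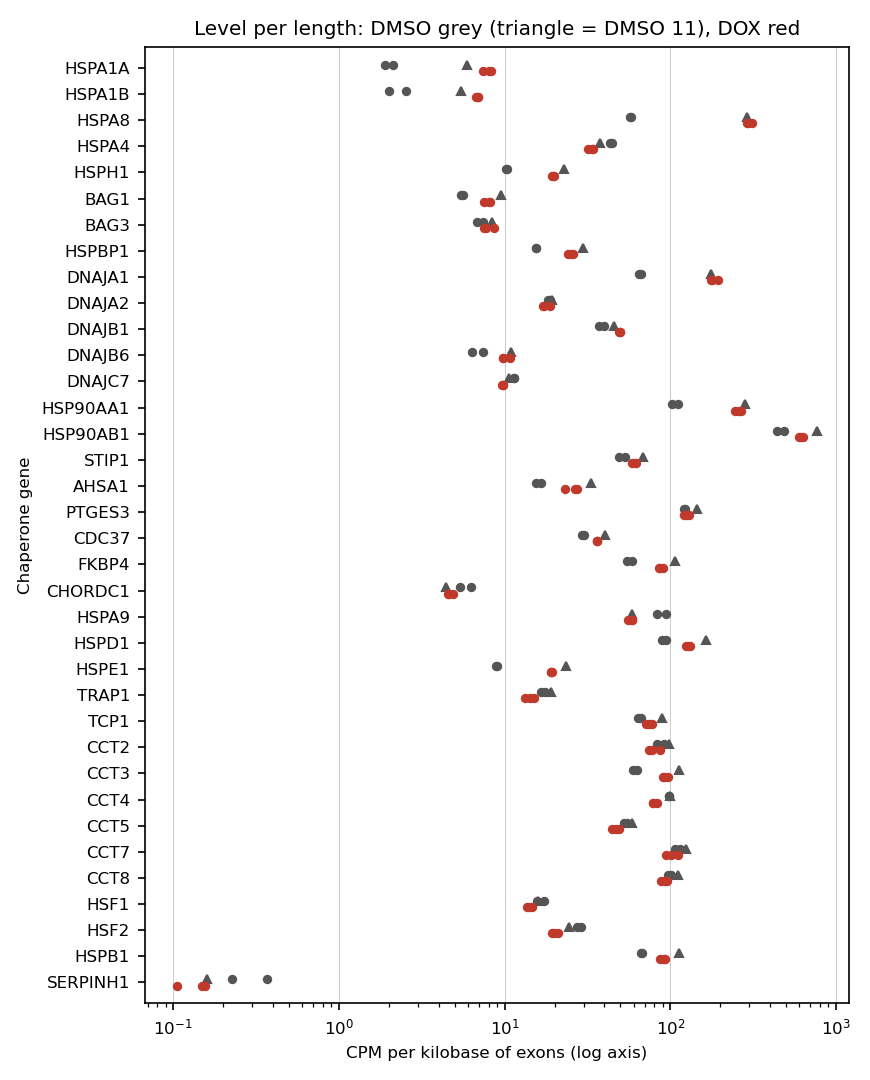
CPM per kilobase of exons (log axis) of each member in every library, with the controls in grey (DMSO 11 as a triangle) and DOX in red. HSP90AB1 is highest in every library and SERPINH1 lowest, and the control points of HSPA8, DNAJA1 and HSP90AA1 are split between DMSO 11 and the other 2.

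Mitochondrial chaperones did not share a direction. HSPA9, the mitochondrial HSP70 (mortalin) that pulls proteins through the inner membrane, stood at 482 CPM in DMSO 11, 779 in DMSO 23 and 689 in DMSO 35, and at 482, 481 and 458 CPM in DOX. This is the reverse of HSPA8: DMSO 11 was again at the DOX level, but DMSO 23 and 35 lay above it, and the log2 fold change was -0.46 ± 0.16 (edgeR adjusted p = 0.14). HSPD1 (HSP60) and HSPE1 (HSP10), which form the mitochondrial folding chamber and lie head to head on chromosome 2, followed DMSO 11 upward instead. HSPD1 stood at 699, 376 and 400.2 CPM in the controls and at 539.5, 555 and 529 CPM in DOX. HSPE1 stood at 46.1, 17.9 and 17.6 CPM in the controls and at 37.6, 38.3 and 37.6 CPM in DOX, and 17.0% of its windows of 100 bases occur in other genes. Their log2 fold changes were 0.14 ± 0.22 and 0.48 ± 0.34, with edgeR adjusted p-values of 0.701 and 0.381.

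TRAP1, the mitochondrial HSP90, had all its DOX values below all its control values. It stood at 99.96, 92.1 and 86.1 CPM in DMSO 11, 23 and 35 and at 78.6, 74.0 and 69.1 CPM in DOX, a log2 fold change of -0.33 ± 0.09. DESeq2 called it (adjusted p = 0.0431) and edgeR did not (adjusted p = 0.101). Exons of DNASE1 on the opposite strand overlap 29.3% of the TRAP1 exon bases in GENCODE 29, and whether the counting used strand was not given in the sources used here. Summed over the 4 genes, the mitochondrial chaperones stood at 1327, 1266 and 1193 CPM in the controls and at 1137, 1149 and 1094 CPM in DOX.

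The 7 TRiC genes, TCP1 and 6 CCT subunits of the same hetero-oligomeric ring, had similar levels per length. Their mean in DMSO ran from 55.4 CPM per kilobase for CCT5 to 116 for CCT7, and in DOX from 46.7 for CCT5 to 102 for CCT7. All 7 were highest in DMSO 11. CCT4 stood at 280.5, 278 and 276 CPM in DMSO 11, 23 and 35 and at 222, 235 and 223 CPM in DOX, the narrowest control range of the members that DESeq2 called. Its log2 fold change was -0.30 ± 0.08, with an adjusted p of 0.0133 by DESeq2 and 0.0984 by edgeR. CCT5 (307 to 341 CPM in the controls, 259 to 286 CPM in DOX) and CCT8 (323 to 374 against 293 to 318 CPM) were also lower in every DOX library, and neither passed either test.

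The other TRiC genes had overlapping groups. CCT7 stood at 449, 412 and 385 CPM in the controls and at 339, 398 and 363 CPM in DOX, and CCT2 at 423, 393 and 361 CPM against 335, 373 and 322 CPM. CCT3 departed from its partners, with 455, 253 and 239 CPM in the controls and 363, 388 and 366 CPM in DOX, and TCP1 did so less, with 440.4, 328 and 315 CPM against 382, 367 and 349.8 CPM. DMSO 11 was 1.85-fold above the mean of DMSO 23 and 35 for CCT3 and 1.37-fold for TCP1, but 1.01-fold to 1.13-fold for the other 5 members of the list. CCT6A, a TRiC gene outside the members, stood at 330, 254 and 248 CPM in the controls and at 269, 291 and 274 CPM in DOX. It was thus also highest in DMSO 11, with overlapping groups, as for TCP1. The DOX mean was below DMSO 11 by a similar ratio in all 7 members of the list, at 0.800 to 0.832 of its level. Such a ratio was not particular to TRiC, as it was 0.818 for HSF2, 0.820 for HSPE1 and 0.822 for FKBP4. Over the members outside TRiC it ran from 0.739 for TRAP1 to 1.33 for HSPA1A. Over the list, DESeq2 called 1 of 7 lower and 0 higher, and the median log2 fold change was -0.18.

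**Figure D4:**
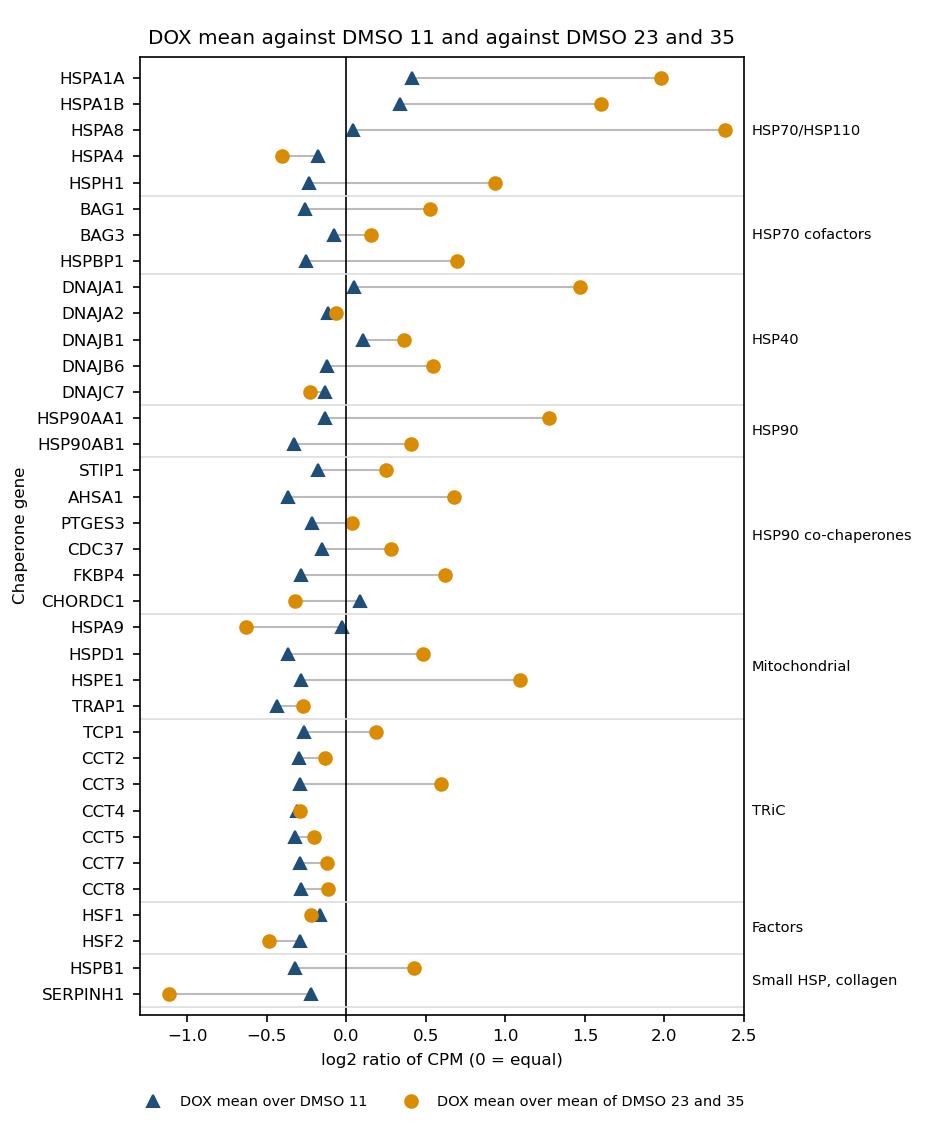
Log2 ratio of the DOX mean CPM to DMSO 11 (triangles) and to the mean of DMSO 23 and DMSO 35 (circles) for each member, joined by a line, with no test. The circles lie far right of the triangles for HSPA8, DNAJA1 and HSP90AA1, and both marks lie left of 0 for CCT4, HSF1, HSF2, HSPA4 and TRAP1. The 7 TRiC triangles stand almost in a column, in which those of HSF2, HSPE1 and FKBP4 also lie.

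Both heat shock factors were lower in DOX than in any control. HSF2, a factor active in development and proteasome stress, stood at 66.3, 74.1 and 78.1 CPM in DMSO 11, 23 and 35 and at 53.7, 57.1 and 52.2 CPM in DOX. Its log2 fold change was -0.42 ± 0.09, with an adjusted p of 0.00613 by DESeq2, the smallest of the members, and 0.0892 by edgeR. HSF1, the main factor of the heat shock response, stood at 84.0, 91.3 and 83.1 CPM in the controls and at 74.4, 72.6 and 77.4 CPM in DOX. Its log2 fold change was -0.20 ± 0.08, and its adjusted p was 0.159 by each test. HSF1 is regulated mainly as a protein, which a transcript level does not report.

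HSPB1 and SERPINH1 belong to no complex above. HSPB1, the small heat shock protein HSP27, stood at 184, 110.3 and 109 CPM in the controls and at 150.3, 151 and 141 CPM in DOX, inside the control range. SERPINH1, a collagen chaperone of the endoplasmic reticulum, was the lowest member, at 1.0003, 2.30 and 1.42 CPM in the controls and 0.658, 0.981 and 0.939 CPM in DOX. Its log2 fold change was -0.87 ± 0.34 (edgeR adjusted p = 0.157).

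The calls depended on which library was left out. Without DMSO 11, edgeR called 20 members higher and 10 lower, in a fit that called 23.7% of genes higher and 25.7% lower. By list, it then called 4 of 5 HSP70 and HSP110 genes, 2 of 3 cofactors, 3 of 5 HSP40 genes, both HSP90 genes, 4 of 6 HSP90 co-chaperones, 2 of 4 mitochondrial and 2 of 7 TRiC genes higher, and HSPB1. The 10 lower ones were HSPA4, DNAJC7, CHORDC1, HSPA9, TRAP1, CCT4, CCT5, HSF1, HSF2 and SERPINH1. With any other library left out, edgeR and DESeq2 each called 0 members, in fits where edgeR called 0% and DESeq2 0.69% to 1.4% of all genes. In those fits 6 to 10 of the 36 members had an unadjusted p under 0.05, against 13% to 16.1% of all genes. The 5 members called by DESeq2 over all libraries thus lost their call without DMSO 23, DMSO 35, DOX 12, DOX 24 or DOX 36, at adjusted p-values from 0.0623 for HSF2 to 0.308 for TRAP1. They kept it without DMSO 11, in a DESeq2 fit that called 30 of the 36 members and 41.5% of all genes. All 5 kept their direction in these fits, with log2 fold changes of 0.78 to 1.60 for HSPA1B, -0.40 to -0.29 for HSPA4, -0.38 to -0.26 for TRAP1, -0.32 to -0.28 for CCT4 and -0.48 to -0.37 for HSF2.

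A wider set of 78 chaperone genes, of which 74 passed the filter, gave 0 calls by edgeR. At an unadjusted p under 0.05, 3 were higher and 17 lower, against 11.2% and 14.8% of all genes. DESeq2 called 1 of them higher and 7 lower, near its shares of all genes on the higher side (3.37%) and somewhat above on the lower (6.44%). Among 13 tested mitochondrial chaperones and proteases, 3 were called lower by DESeq2 and the median log2 fold change was -0.21. Of these, DNAJA3, the J protein partner of HSPA9, stood at -0.39 ± 0.11, and GRPEL2, a nucleotide exchange factor for HSPA9, at -0.36 ± 0.09. DNAJC19, a J protein of the inner membrane, stood at -0.45 ± 0.12. DESeq2's adjusted p-values were 0.0437, 0.0266 and 0.0278. GRPEL1, the relative of GRPEL2, was more abundant (mean 83.1 against 27.3 CPM) and was not called (-0.06 ± 0.08, DESeq2 adjusted p = 0.568). DNAJA3 stood at 115, 154 and 146 CPM in the controls and at 106.5, 107 and 103 CPM in DOX, so that DMSO 11 was again the control nearest to DOX, as for HSPA9.

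In the other lists DESeq2 called DNAJB5 higher, from 7.36, 3.69 and 3.96 CPM in the controls to 9.74, 9.53 and 8.77 CPM in DOX (adjusted p = 0.0149). It called lower the ribosome-bound J protein DNAJC2 (-0.31 ± 0.09, adjusted p = 0.0408), DNAJC18 (-0.60 ± 0.19, adjusted p = 0.0378), the HSP90 immunophilin FKBP5 (-0.30 ± 0.09, adjusted p = 0.0351) and the AAA+ ATPase RUVBL1 (-0.32 ± 0.08, adjusted p = 0.0156). FKBP5 stood at 303, 311 and 346 CPM in the controls and at 256, 270.4 and 255 CPM in DOX. Its relative FKBP4 among the members did not follow it. Whether the DESeq2 calls in this wider set hold with a library left out was not checked. Of 16 prefoldin, TRiC partner and tubulin cofactor genes, CCT6A and CCT6B among them, DESeq2 called 0 and the median was 0.00511.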

How the data were processed

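RNA sequencing libraries from 3 DMSO and 3 doxycycline samples were compared. The authors deposited raw read counts per Ensembl gene; STAR 2.5.2a, featureCounts, DESeq2 1.12.4 and hg19 are named in the submitters' processing notes, and their annotation and strand setting: not given in the sources used here. The authors' deposited comparison holds, per the file headers, a mean normalized signal, log2 fold changes with standard errors, a Wald score, p-values and adjusted p-values. The 92 spike-in features held 0 counts and were left out, and mitochondrial genome genes held 0 counts.

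Column names gave the group but a number found in no label, so columns were used as unnumbered replicates. Genes kept by edgeR's filterByExpr were tested with edgeR 4.0.16 (TMM scaling, quasi-likelihood test) under R 4.3.3, with Benjamini-Hochberg adjustment over all genes and a threshold of 0.05. DESeq2 1.42.0, limma 3.58.1 (voom), other scalings and filters, a threshold of 0.01 and each library left out were alternatives. DESeq2 with each library left out was added after seeing the data. The fits were tested on simulated data.

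The members and lists were chosen with earlier results of these data known. Every member is named. Values by library are given for members called by either test, for the 2 most abundant and the most changed of each list, and for some others. Of other chaperones, called genes are named. Where a symbol had several gene IDs, the one with the highest total count was used. Exon lengths and gene overlaps came from GENCODE 29 and promoters from RefSeq, both on GRCh38, and were used for names, lengths and sequences.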

Additional observations from a re-analysis of the deposited data

How the results depend on the processing

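No paired analysis was possible because the labels' replicate numbers could not be attached to the count columns, whose own numbers are in no label. Those numbers are consecutive across groups (DMSO 11 and DOX 12, for example), but no label gives them as pairs, and no fit with such a block was run. edgeR called 0 members with all libraries. Members called higher and lower numbered 1 and 4 by DESeq2, and 5 were lower without a filter (HSPA4, HSPA9, TRAP1, HSF2 and SERPINH1). That fit without a filter tested 31682 genes and called 5.56% of them in either direction. With 1 library left out, edgeR and DESeq2 gave 0 to 20 higher and 0 to 10 lower members, all from leaving out DMSO 11. Over all genes, edgeR called 2 higher and 3 lower, DESeq2 475 and 908, edgeR without a filter 615 and 1146, and edgeR at a threshold of 0.01 gave 1 and 0. Leaving out 1 library gave 0 to 3894 higher and 0 to 4215 lower by edgeR, and 33 to 3286 and 62 to 3520 by DESeq2. Members with every DOX library above every control numbered 3, or 5 with scaling by total count. Those with every DOX library below numbered 9, or 10 with that scaling or with DESeq2's size factors. The share of all genes was not taken under these other scalings. The cause of these changes was not tested.

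Signs turned only in members that passed no test over all libraries. With 1 library left out, the log2 fold change ran by edgeR from -0.038 to 0.41 for HSP90AB1, -0.0079 to 0.25 for STIP1, -0.10 to 0.037 for PTGES3, -0.025 to 0.48 for HSPD1, -0.072 to 0.19 for TCP1 and -0.0024 to 0.43 for HSPB1. By DESeq2 it ran from -0.038 to 0.41, -0.0059 to 0.26, -0.10 to 0.044, -0.025 to 0.49, -0.071 to 0.19 and -0.0015 to 0.43 in the same order. SERPINH1 gave no value with a filter of 1 CPM. The number of members called depends on DMSO 11. Each library held 28602145 counts or more, so counting error is small for all members but SERPINH1, HSPA1A and HSPA1B, the least abundant.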
